A study of Mus musculus with 6 samples.

Results

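The change in gene expression between weaning and adulthood was followed in colonic lamina propria macrophages (MΦs) of Il10rb+/- mice, the control littermates of Il10rb-/- mice. The data are 2 of the 6 RNA-seq libraries of the series, those of Il10rb+/- MΦs at 3 weeks and at 12 weeks of age, and the 10666 of 14097 listed genes with 50 or more normalized counts in either of them. Each was made from 1 untreated mouse on the 129SvEv background that carried 1 intact and 1 disrupted copy of Il10rb, the chain shared by the receptors for IL10 and related cytokines, in all its cells, so no wild-type animal is among them. The cells were sorted directly after enzymatic digestion of the lamina propria, by the gate CD45+CD11b+CD11cintCD103-CD64+Ly6C-MHCII+, which takes the mature P3 and P4 MΦs and leaves out Ly6C+ monocytes. The 1-week Il10rb+/- library (pooled colons of pups) and the 3 Il10rb-/- libraries of the same ages are used only for comparison. The Il10rb-/- mice lack the receptor chain and share strain, housing and gate. They also differ in disease, as the paper reports colonic inflammation in them from about weaning and colitis in virtually all of them before adulthood. The part of inflammation in differences between genotypes was not tested. With 1 library at each age, no difference between 3 and 12 weeks has a replicate check, no p-value can be given for it, and age cannot be told apart from the individual mouse, sort and library.

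Macrophages of the gut wall differ from those of most other organs in that blood monocytes keep replacing much of the population after weaning, and recruited cells pass from Ly6C+MHCII- through Ly6C+MHCII+ to mature Ly6C-MHCII+ MΦs. Mature cells present antigen, clear apoptotic cells, secrete IL10 and answer poorly to bacterial products. Weaning is the time at which the bacterial community of the colon expands and changes, and 12-week-old mice are adults.

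The 3-week library held 6700337 reads on the listed genes and the 12-week library 40754971, so that 1 read was worth 2.43 normalized counts at 3 weeks and 0.473 at 12 weeks. The limit of 50 normalized counts therefore stood for 20.5 reads at 3 weeks and 106 at 12 weeks, and low values at 3 weeks carry the larger counting error. A ratio is always the 12-week over the 3-week value, and its 95% counting interval (exact Clopper-Pearson) covers the sampling of reads alone. Genes with 0 reads at 3 weeks are given as a lower bound against 3 reads, which are worth 7.30 normalized counts there. The labels do not give the sex of the animals, and both libraries read as the same sex, with Xist at 5208 at 3 weeks and 4789 at 12 weeks and Ddx3y at 0 reads in each.

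Most genes differed little. Across the 10666 genes the median log2 ratio was 0.01, the middle 50% of genes lay between -0.31 and 0.36, and log2 levels at the 2 ages correlated across genes with a Pearson coefficient of 0.904, genes not being independent replicates. Over 3-fold higher at 12 weeks were 546 genes (5.12% of those tested), and over 3-fold lower were 84 (0.788%), so higher levels made up 86.7% of the genes past 3-fold. Scaling to total reads in place of the deposited size factors moved the median of all genes by -0.24 and the share of higher genes to 74.1%. Most of the 546 were scarce at 3 weeks, as 374 were under 50 normalized counts there, 119 had 3 reads or fewer and 34 had none. Only 121 of them reached 500 normalized counts at 12 weeks. Scarcity at the lower age is not particular to the rises, as 65 of the 84 lower genes (77.4%) were under 50 at 12 weeks, against 68.5% of the 546 at 3 weeks. The limit asks for 50 at 1 age only. A gene under 50 at 3 weeks was therefore tested only if it was higher at 12 weeks, and the reverse holds for falls. Rises named below that passed through the 12-week library alone include Ly6c2, H2-Eb2, Ptges, Ccl11, Ccl17, Fosl1, Isg20, Fabp4 and Egln3. For 321 of the 546 and 33 of the 84 the whole counting interval lay past 3-fold. Just inside the threshold lay Dusp5, at 4607 at 3 weeks and 13853 at 12 weeks, and Zfp111, at 68.1 at 3 weeks and 22.7 at 12 weeks, and just outside it Mdm2, at 1903 at 3 weeks and 5687 at 12 weeks, and Acot7, at 141 at 3 weeks and 423 at 12 weeks.

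**Figure D1:**
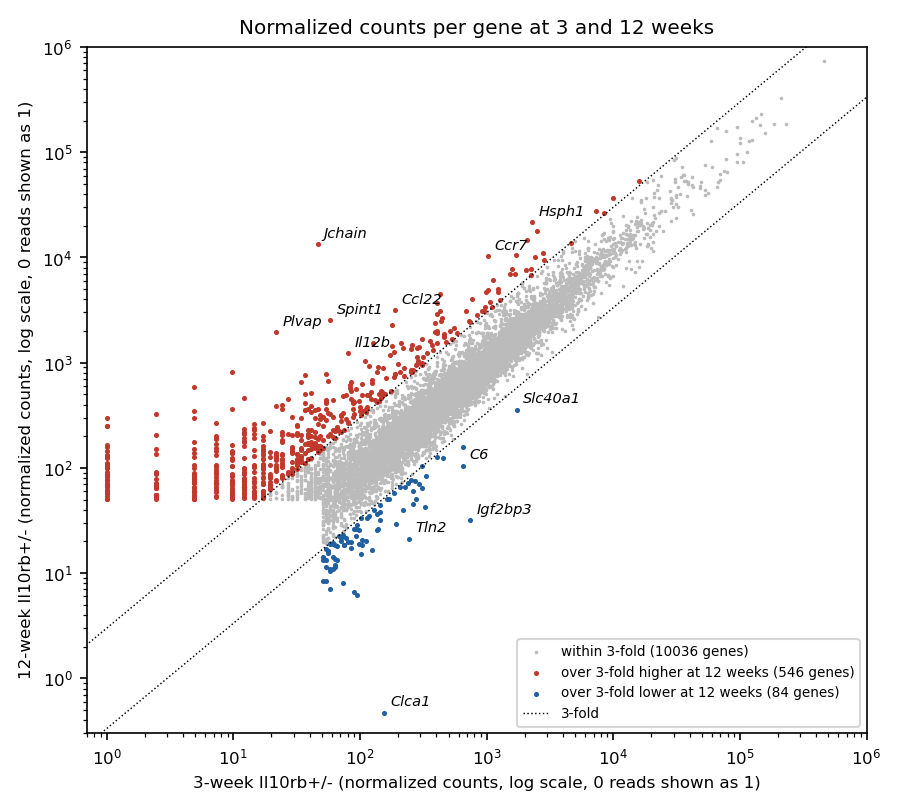
Normalized counts of the 10666 genes in the 3-week (x axis) and 12-week (y axis) Il10rb+/- libraries, both on log scales with 0 reads drawn as 1; dotted lines mark a 3-fold difference and each point is 1 gene. The 546 genes past the upper line lie mostly at low 3-week values, and the 84 past the lower line mostly at low 12-week values. The 84 include few genes with high levels, such as Slc40a1 at 1735 and 358.

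Genes of the sorting gate were read first. Ptprc, which encodes CD45, stood at 20692 at 3 weeks and 21815 at 12 weeks, and Fcgr1, which encodes CD64, at 1859 at 3 weeks and 1285 at 12 weeks. H2-Ab1, an MHC class II chain, stood at 211504 at 3 weeks and 324510 at 12 weeks. All 3 were abundant at both ages. Itgam, which encodes CD11b, had 2205 at 3 weeks and 1454 at 12 weeks (log2 ratio -0.60). Itgax, which encodes CD11c, had 1501 at 3 weeks and 2857 at 12 weeks (log2 ratio 0.93). Itgae, which encodes CD103, had 3 reads at 3 weeks and 10 at 12 weeks, near 0 in both. Both Ly6C genes, whose protein the gate excludes, were higher at 12 weeks. Ly6c2 stood at 9.73 at 3 weeks and 143 at 12 weeks (log2 ratio 3.88, 95% counting interval 2.51 to 5.76), and Ly6c1 at 4.87 at 3 weeks and 585 at 12 weeks, the 3-week values resting on 4 and 2 reads. The Ly6c genes are near-identical copies, so how their reads were split between them is uncertain, and Ly6c1 is also expressed by endothelial cells.

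Genes that define resident MΦs stood at similar levels at both ages. None of the 28 genes of this list was past 3-fold in either direction, and the median log2 ratio was -0.03, beside 0.01 for all genes. Adgre1, which encodes F4/80, had 20595 normalized counts at 3 weeks and 16537 at 12 weeks, and Csf1r, the receptor for the growth factor that keeps MΦs alive, had 65622 at 3 weeks and 47225 at 12 weeks. Cx3cr1, the fractalkine receptor, was the member with the lowest ratio, at 15952 at 3 weeks and 8074 at 12 weeks (log2 ratio -0.98, 95% counting interval -1.02 to -0.94). The genes C1qa, C1qb and C1qc, whose products form the first complement component, stayed within 0.1 of 0 on the log2 scale. The scavenger receptor Cd163 had 4536 at 3 weeks and 4112 at 12 weeks, after 247 at 1 week. Timd4, a receptor for apoptotic cells, and Lyve1 and Folr2, which together mark MΦs that renew themselves locally in several tissues, were each higher at 12 weeks but within 3-fold. Timd4 had 555 at 3 weeks and 985 at 12 weeks, Lyve1 1312 at 3 weeks and 3120.4 at 12 weeks, and Folr2 1334 at 3 weeks and 2057 at 12 weeks. Of the transcription factors, Maf had 3504 at 3 weeks and 2132 at 12 weeks, lower at 12 weeks, while Runx3 had 1463 at 3 weeks and 2560.1 at 12 weeks and Nr1h3, the oxysterol receptor LXRalpha, 144 at 3 weeks and 427 at 12 weeks. Nr1h3 was the member with the highest ratio (log2 ratio 1.57, 95% counting interval 1.19 to 1.98).

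Monocyte genes were mixed. Of 18 tested, 2 were over 3-fold higher (Ly6c2 and Clec4e) and none over 3-fold lower, beside 5.12% and 0.788% of all genes. The median log2 ratio was 0.53. Ccr2, the receptor that brings monocytes out of the marrow, had 20629 at 3 weeks and 11505 at 12 weeks, against 3960.1 at 1 week. Plac8 had 513 at 3 weeks and 1515 at 12 weeks. The lectin Clec4e rose from 2847 to 9388 normalized counts. Lyz2, which encodes lysozyme, was level at 186441 at 3 weeks and 186648 at 12 weeks. The list therefore held members on both sides, with 13 of 18 ratios above 0 and 5 below.

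**Figure D2:**
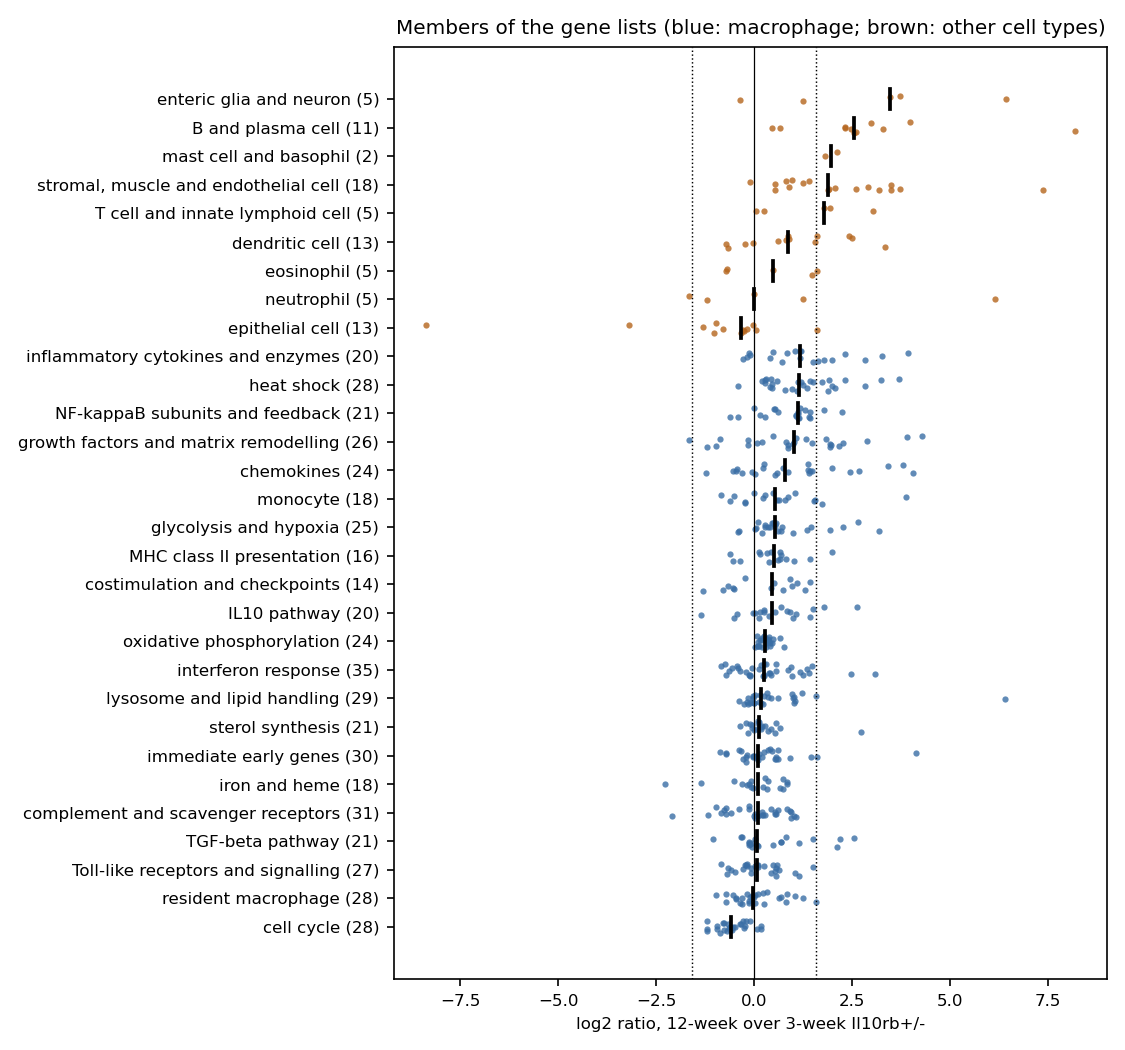
Log2 ratio (12-week over 3-week Il10rb+/-) of every tested member of each gene list, 1 point a gene, with the number tested in brackets and a black bar at the list's median; solid line at 0, dotted lines at 3-fold. Medians of macrophage lists (blue) run from -0.60 for the cell cycle to 1.18 for inflammatory cytokines, and among lists of other cells (brown) that of B and plasma cells lies at 2.54.

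Several of the largest rises were genes of cells outside the gate. Ranked by the end of the counting interval nearest 0, the first was Jchain, the joining chain of secreted IgA and IgM and a product of plasma cells, at 46.2 at 3 weeks and 13324 at 12 weeks (log2 ratio 8.17, 95% counting interval 7.53 to 8.90). The 1-week Il10rb+/- library had 0 reads of Jchain, and the Il10rb-/- libraries had 208 at 3 weeks and 1359 at 12 weeks. Next came Plvap, which forms the diaphragms of fenestrated capillaries, at 21.9 at 3 weeks and 1957 at 12 weeks (log2 ratio 6.48, 95% counting interval 5.56 to 7.61). Podxl, Mmrn2 and Emcn, products of the vessel lining, each had 0 reads at 3 weeks, and stood at 297, 249.6 and 165 normalized counts at 12 weeks. These are rises of at least 40.7-fold, 34.2-fold and 22.6-fold. The pericyte gene Rgs5 had 1 read at 3 weeks and 328 normalized counts at 12 weeks (log2 ratio 7.08, 95% counting interval 4.59 to 12.38). Retnlg, a resistin-like gene of neutrophils, had 2 reads at 3 weeks and 346 normalized counts at 12 weeks.

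The whole lists of other cell types were counted beside these genes. Of 11 tested B and plasma cell genes, 9 were over 3-fold higher and none lower, beside 5.12% and 0.788% of all genes. Their median log2 ratio was 2.54. These values are raised by the filter, as 5 of the 11 passed the limit of 50 through the 12-week library alone. The B cell surface protein gene Ms4a1 (CD20) had 117 at 3 weeks and 921 at 12 weeks, and Mzb1, a chaperone of antibody secretion, 36.5 at 3 weeks and 353 at 12 weeks. The summed reads of this list made up 0.0401% of the library at 3 weeks and 0.135% at 12 weeks, against 0.0482% at 1 week. Summed, the list had 6532 normalized counts at 3 weeks and 26041 at 12 weeks, and Jchain alone made up 46.2 and 13324 of these. Of 18 stromal, muscle and endothelial genes, 10 were over 3-fold higher and none over 3-fold lower, beside 5.12% and 0.788% of all genes. Their median was 1.89, though 8 of the 18 passed the limit through the 12-week library alone. Their share of reads was 0.0327% at 3 weeks and 0.0523% at 12 weeks. Lyve1, given above with the resident MΦ genes, is also on this list. Its rise counts in the list's summed 5339 normalized counts at 3 weeks and 10075 at 12 weeks. Dcn, a fibroblast proteoglycan, had 187 at 3 weeks and 777 at 12 weeks, Kdr, the VEGF receptor of endothelium, 36.5 at 3 weeks and 412 at 12 weeks, and Des, the muscle filament desmin, 12.2 at 3 weeks and 161 at 12 weeks, whereas Col3a1 was level at 1823 at 3 weeks and 1678 at 12 weeks. Of the enteric glia genes, Sox10 had 0 reads and 86.0, and the glial filament gene Gfap 4.87 at 3 weeks and 53.9 at 12 weeks. Both passed the limit of 50 through the 12-week library alone, as did 4 of the 5 tested members of their list, so no count is read from it. The list took 0.00222% of reads at 3 weeks and 0.00360% at 12 weeks.

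Lists of T cells and innate lymphoid cells and of dendritic cells moved likewise. Over 3-fold higher were 3 of 5 and 4 of 13 tested members, beside 5.12% of all genes. The T cell receptor complex genes Cd3d, Cd3e and Cd3g stayed under 50 normalized counts at both ages, and Cd8a had 0 reads at both, while Cd5 had 12.2 at 3 weeks and 98.8 at 12 weeks and Il7r 459.9 at 3 weeks and 1749.8 at 12 weeks. Il2rb, the chain shared by the IL2 and IL15 receptors, was at 0 reads and 158, at least 21.6-fold higher. Ccr7, which guides migrating cells to lymph nodes, had 1029 at 3 weeks and 10331 at 12 weeks (log2 ratio 3.33, 95% counting interval 3.19 to 3.47), and Xcr1, a marker of cross-presenting dendritic cells, 21.9 at 3 weeks and 124 at 12 weeks. The dendritic cell factor Zbtb46 had 102 at 3 weeks and 178 at 12 weeks, and Clec9a had 5 reads and 1 read. The share of reads on the dendritic cell list was 0.0404% at 3 weeks and 0.101% at 12 weeks. Summed, the list had 6580 and 19414.5 normalized counts, and Ccr7 alone made up 1029 and 10331 of these. The defining neutrophil granule genes were near 0, with S100a8 at 2 and 27 reads, S100a9 at 0 and 71, and Camp and Ngp at 0 in both. Genes of the same list that monocytes and MΦs share were abundant, such as Il1r2, the decoy receptor for IL1, at 4738 at 3 weeks and 11247 at 12 weeks, and Csf3r, at 1414 at 3 weeks and 1419.8 at 12 weeks. Of its 5 tested members 1 was over 3-fold higher and 1 over 3-fold lower, beside 5.12% and 0.788% of all genes. The neutrophil list took 0.0558% of reads at 3 weeks and 0.0743% at 12 weeks. Some members of these lists likewise passed the limit only through the 12-week library, where they are high and so had to differ. They were 5 of the 11 B and plasma cell genes, 8 of the 18 stromal, muscle and endothelial genes and 2 of the 5 T cell genes. So did 1 of the 13 dendritic cell genes, Xcr1, and 1 of the 5 neutrophil genes, Retnlg, the neutrophil member over 3-fold higher. The part that such cells have in the rises was not tested. In a bulk library, more cells of a type and more RNA per cell cannot be told apart. Without all lists of other cell types, a choice made after the values were seen, 512 genes were past 3-fold upwards and 81 downwards.

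**Figure D3:**
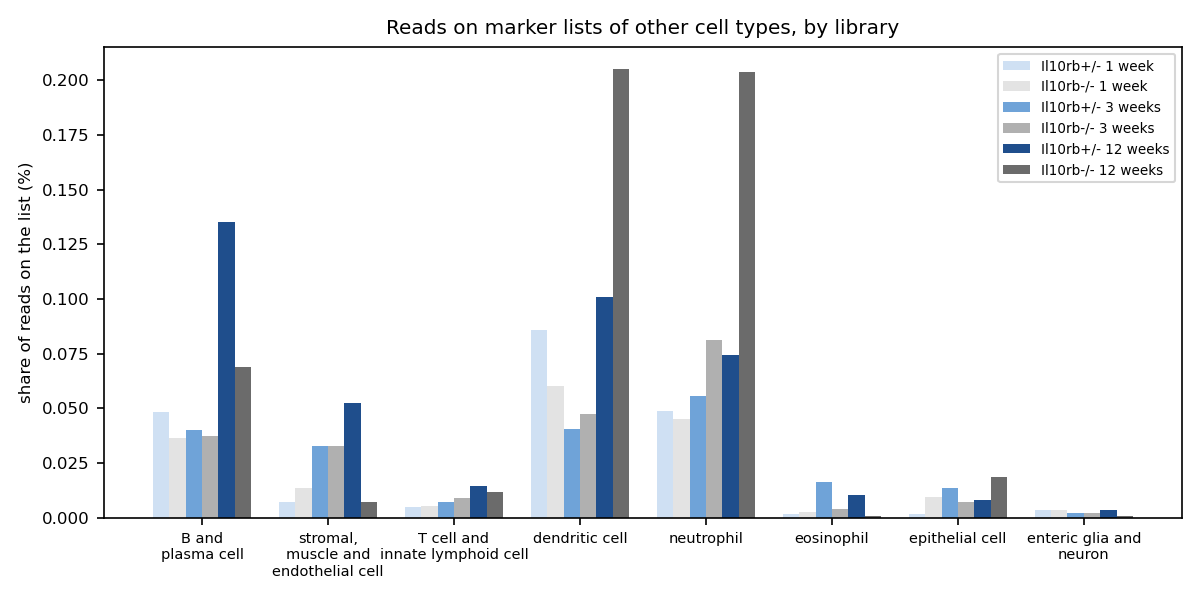
Summed share of library reads (y axis, percent, from 0) on the marker lists of 8 other cell types in each of the 6 libraries; blue bars are Il10rb+/-, grey bars Il10rb-/-, darker with age. The 12-week Il10rb+/- library is the highest of the 6 for B and plasma cell genes (0.135%) and for stromal, muscle and endothelial genes (0.0523%). Jchain alone made up 13324 of the 26041 normalized counts of B and plasma cell genes in that library.

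Epithelial genes went the other way. Of 13 tested, 11 had a log2 ratio below 0, 2 were over 3-fold lower and 1 (Car2) was over 3-fold higher. Among all genes, 0.788% were over 3-fold lower and 5.12% over 3-fold higher. The median was -0.35, and 3 passed the limit only through the 3-week library and 1 only through the 12-week library. Clca1, secreted by goblet cells into mucus, had 64 reads at 3 weeks and 1 read at 12 weeks (log2 ratio -8.36, 95% counting interval -13.69 to -5.83), the largest fall by the ranking used here. Fcgbp, another component of goblet cell mucus, had 73.0 at 3 weeks and 8.04 at 12 weeks, while Epcam, carried by all colon epithelium, had 117 at 3 weeks and 96.4 at 12 weeks, with an interval that spans 0. The list took 0.0137% of reads at 3 weeks and 0.00783% at 12 weeks, and its part in the falls of Clca1 and Fcgbp was not tested. Hemoglobin genes had few reads, with Hba-a1 at 12 reads at 3 weeks and 0 at 12 weeks.

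Outside these lists, the falls named genes at low or middle levels. Igf2bp3, at chr6:49085223-49214957 of GRCm38 on the minus strand, encodes an RNA-binding protein typical of fetal tissue. It had 976 normalized counts at 1 week, 745 at 3 weeks and 32.1 at 12 weeks, a fall of 23.2-fold after 3 weeks (log2 ratio -4.53, 95% counting interval -4.93 to -4.15). In Il10rb-/- MΦs it had 1075, 780 and 10.2 at the same ages, so that the levels at 1 and 3 weeks were above those at 12 weeks in both genotypes. Tln2, which encodes the cytoskeletal linker talin-2, had 634, 243 and 21.3 at 1, 3 and 12 weeks. The tetraspanin Tspan8 had 623, 329 and 42.1. In both, each later library was the lower. C6, a component of the membrane attack complex, had 647 at 3 weeks and 105 at 12 weeks (log2 ratio -2.62, 95% counting interval -2.89 to -2.36). The growth factor Wnt4 had 192 at 3 weeks and 29.3 at 12 weeks, against 51.6 at 1 week. The kinase gene Hunk had 124 at 3 weeks and 16.5 at 12 weeks, the zinc finger gene Zfp11 90.0 at 3 weeks and 6.62 at 12 weeks, and Fam135a 263 at 3 weeks and 45.9 at 12 weeks. Only 4 of the 84 genes had 500 or more normalized counts at 3 weeks, and Slc40a1 was the highest of them.

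Slc40a1, at chr1:45908068-45926523 on the minus strand, encodes ferroportin, the only known cellular exporter of iron. It had 3257 normalized counts at 1 week, 1735 at 3 weeks and 358 at 12 weeks, 4.84-fold lower at 12 than at 3 weeks (log2 ratio -2.28, 95% counting interval -2.42 to -2.13). It was the only gene past 3-fold among 18 tested iron and heme genes, whose median log2 ratio was 0.10, or -0.14 when scaled to total reads. Cp, a ferroxidase that works with ferroportin, had 6436 at 1 week and 3261 at 3 weeks and 1263 at 12 weeks (log2 ratio -1.37, 95% counting interval -1.46 to -1.27), within 3-fold. The storage protein genes Fth1, at 133700 at 3 weeks and 211709 at 12 weeks, and Ftl1, at 59826 at 3 weeks and 71976 at 12 weeks, were higher at 12 weeks, and so was the heme oxygenase gene Hmox1, at 9973 at 3 weeks and 17847 at 12 weeks. The transferrin receptor gene Tfrc had 652 at 3 weeks and 824 at 12 weeks and Spic, a transcription factor of iron-recycling MΦs, 732 at 3 weeks and 1228 at 12 weeks. The exporter and its ferroxidase were thus lower at 12 weeks, and genes of storage and heme breakdown higher by less than 3-fold.

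The gene for IL10 itself was among those past the threshold. Il10, at chr1:131019845-131024974, had 1329.6 normalized counts at 1 week, 1701 at 3 weeks and 10488 at 12 weeks, 6.17-fold higher in the older mouse (log2 ratio 2.62, 95% counting interval 2.52 to 2.73). Its level in Il10rb-/- MΦs was 1619.7 at 3 weeks and 2339 at 12 weeks. The receptor chains did not follow, with Il10ra at 8276 at 3 weeks and 8419 at 12 weeks (log2 ratio 0.02, 95% counting interval -0.03 to 0.08) and Il10rb at 939 at 3 weeks and 1107 at 12 weeks (log2 ratio 0.24, 95% counting interval 0.08 to 0.40). Of 20 genes of the IL10 pathway, 2 were over 3-fold higher and none lower (median 0.45), beside 5.12% and 0.788% of all genes. The other was Tnip3, an inhibitor of NF-kappaB, at 2236 at 3 weeks and 7709.7 at 12 weeks. The signal transducer Stat3 had 4504 at 3 weeks and 7235 at 12 weeks, its feedback inhibitor Socs3 42954 at 3 weeks and 46948 at 12 weeks, and the IL1 receptor antagonist Il1rn 20687 at 3 weeks and 55052 at 12 weeks. Zfp36, whose product degrades cytokine mRNAs, was level at 156862 at 3 weeks and 153961 at 12 weeks. Ddit4 was the only member lower by more than 1 on the log2 scale, at 154 in the 12-week library (log2 ratio -1.35, 95% counting interval -1.62 to -1.06).

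Cytokine genes were higher as well. Of 20 tested genes of inflammatory cytokines and enzymes, 7 were over 3-fold higher and none over 3-fold lower, with a median log2 ratio of 1.18. Il12b, which encodes the p40 chain shared by IL12 and IL23, had 80.3 at 3 weeks and 1225 at 12 weeks (log2 ratio 3.93, 95% counting interval 3.44 to 4.47), after 221 at 1 week. Il23a, the p19 chain of IL23, had 109.5 at 3 weeks and 1041 at 12 weeks (log2 ratio 3.25, 95% counting interval 2.82 to 3.71), and Il12a, the other partner of p40, had 0 reads at 3 weeks and 20 at 12 weeks. Both chains of IL23 were therefore higher in the adult library and the second chain of IL12 was below the limit on low values at both. Il1a had 8488 at 1 week and 2504 at 3 weeks and 17825 at 12 weeks (log2 ratio 2.83, 95% counting interval 2.74 to 2.92), lowest at 3 weeks. Il1b, at 77011 at 3 weeks and 159466 at 12 weeks, and Il6, at 674 at 3 weeks and 1526 at 12 weeks, were higher within 3-fold. Tnf, at 15587 at 3 weeks and 20734 at 12 weeks (log2 ratio 0.41, 95% counting interval 0.37 to 0.45), differed less, and Osm, Ebi3, Il15 and Il27 had ratios below 0. Nos2, the inducible nitric oxide synthase, had 5 and 22 reads and was below the limit on low values at both ages. Inhba, a chain of activin A, rose from 87.6 to 434, the itaconate synthase gene Irg1 from 207 to 823, Csf3 from 75.4 to 232, and Ptges, the prostaglandin E synthase, from 17.0 to 58.6.

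**Figure D4:**
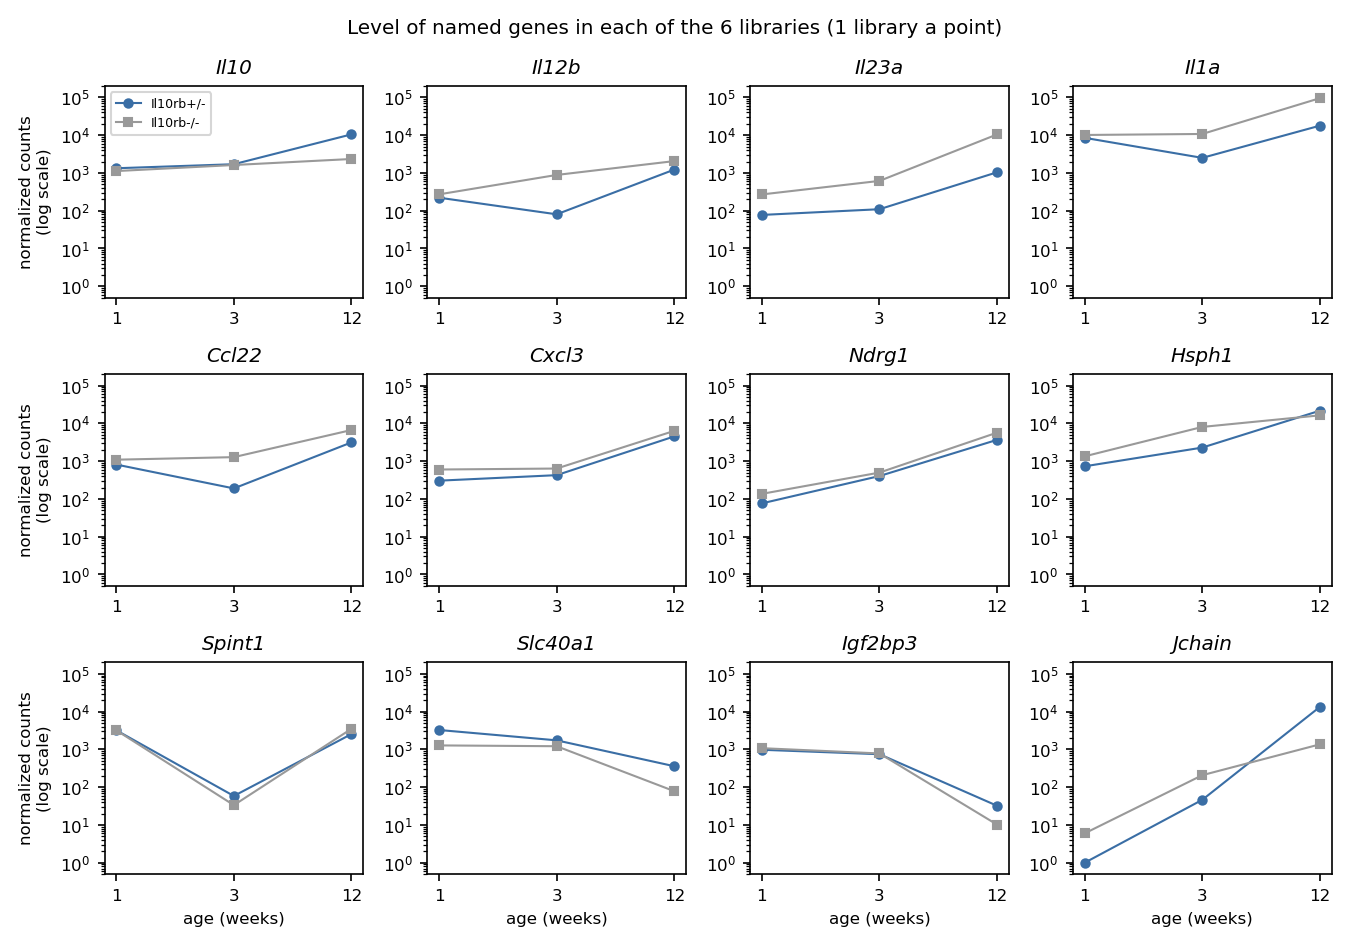
Normalized counts (y axis, log scale, 0 reads drawn as 1) of 12 genes against age in weeks (x axis, not to scale), with Il10rb+/- as blue circles and Il10rb-/- as grey squares, 1 library a point and lines only to guide the eye. In Il10rb+/-, Il10 reaches 10488 at 12 weeks from 1701 at 3 weeks, Spint1 is lowest at 3 weeks in both genotypes, and Slc40a1 and Igf2bp3 are lowest at 12 weeks in both.

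Chemokine genes divided by ligand. Of 24 tested, 6 were over 3-fold higher, none was over 3-fold lower, and the median was 0.79. Ccl22 and Ccl17, the ligands of CCR4 on T cells, had the largest ratios. Ccl22 had 189.8 at 3 weeks and 3136 at 12 weeks (log2 ratio 4.05, 95% counting interval 3.72 to 4.39), after 813 at 1 week, and Ccl17 had 36.5 at 3 weeks and 508 at 12 weeks, after 129.9. Dendritic cells make both, and the dendritic cell list was higher at 12 weeks too, at 0.0404% and 0.101% of reads. Ccr7 was the largest part of that 12-week share, and the list's part in the Ccl22 and Ccl17 values was not tested. Cxcl3, a neutrophil attractant, had 426 at 3 weeks and 4517 at 12 weeks (log2 ratio 3.41, 95% counting interval 3.19 to 3.63), while its relatives Cxcl1, at 29983 at 3 weeks and 83965 at 12 weeks, and Cxcl2, at 95635 at 3 weeks and 172948 at 12 weeks, were higher within 3-fold. Ccl5 had 185 at 3 weeks and 725 at 12 weeks and Cxcl12 77.9 at 3 weeks and 495 at 12 weeks. Cxcl12 and the sixth gene, Ccl11, at 9.73 at 3 weeks and 52.5 at 12 weeks, are made by stromal cells, whose list was also higher. That list's part in the Cxcl12 and Ccl11 values was not tested. The monocyte attractant Ccl2 was level at 31419 at 3 weeks and 31968 at 12 weeks, and Ccl3, at 41292 at 3 weeks and 28456 at 12 weeks, Ccl4, at 55998 at 3 weeks and 40803 at 12 weeks, and Ccl12, at 4850 at 3 weeks and 2085 at 12 weeks, were lower within 3-fold.

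Genes of the NF-kappaB family and its feedback inhibitors were higher by a similar amount. Of 21, 2 were over 3-fold higher (Traf1 and Tnip3), beside 5.12% of all genes, and none was lower by 3-fold. Ratios above 0 were found for 18, and the median was 1.11. The subunit genes Nfkb1, Nfkb2, Rel, Rela and Relb had log2 ratios of 1.11, 1.11, 1.39, 0.61 and 1.13, and the inhibitor gene Nfkbia had 34682 at 3 weeks and 72195 at 12 weeks. Traf1, an adaptor of TNF receptors, had 986 at 3 weeks and 4673 at 12 weeks (log2 ratio 2.25, 95% counting interval 2.10 to 2.39). The receptors that feed this pathway did not move together. None of 27 tested Toll-like receptor genes was past 3-fold, and their median was 0.07, or -0.17 when scaled to total reads. Cd14, the co-receptor for lipopolysaccharide, had 31422 at 3 weeks and 88470.1 at 12 weeks (log2 ratio 1.49, 95% counting interval 1.47 to 1.52) and the largest ratio of the list, whereas Tlr4 had 1789 at 3 weeks and 1107 at 12 weeks, Tlr2 6266 at 3 weeks and 9169 at 12 weeks, and the intracellular sensor Nod1 552 at 3 weeks and 308 at 12 weeks.

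Heat shock genes were higher at 12 weeks almost throughout. Molecular chaperones refold proteins damaged by heat or oxidation, and their genes are switched on together by the factor HSF1, which binds inverted repeats of the letters nGAAn. Of 28 tested, 9 were over 3-fold higher and none was lower by 3-fold, beside 5.12% and 0.788% of all genes. Ratios above 0 were found for 27, and the median was 1.15. The small chaperone gene Hspb1 had 178 at 3 weeks and 2288 at 12 weeks (log2 ratio 3.69, 95% counting interval 3.35 to 4.04), after 107 at 1 week. Hsph1, a partner of HSP70, had 731 at 1 week and 2288 at 3 weeks and 21666 at 12 weeks (log2 ratio 3.24, 95% counting interval 3.15 to 3.34), and Bag3, which links HSP70 to autophagy, 936 and 2081 at 3 weeks and 14792 at 12 weeks. These 3 genes were lowest at 1 week and highest at 12 weeks. Hsp90aa1, the inducible HSP90, had 15922 at 3 weeks and 52892 at 12 weeks, and Dnajb1, an HSP40, 10007 at 3 weeks and 36852 at 12 weeks. The mitochondrial chaperonin genes lie head to head, and Hspd1 had 2424 at 3 weeks and 10187 at 12 weeks. Its neighbour Hspe1 had 2794 at 3 weeks and 10956 at 12 weeks. Hspa1a, at 59548 at 3 weeks and 127596 at 12 weeks, and Hspa1b, at 66515 at 3 weeks and 169739 at 12 weeks, are near-identical copies of HSP70 whose reads cannot be told apart with certainty. The endoplasmic reticulum chaperone Hspa5 had 99881 at 3 weeks and 121865 at 12 weeks, and Hsf1 itself 511 at 3 weeks and 589.6 at 12 weeks. In Il10rb-/- MΦs none of the 28 was past 3-fold and the median was 0.53, and the list's summed share of reads at 3 weeks was 2.57%, against 1.98% in Il10rb+/-. At 12 weeks it was 2.22% in Il10rb-/- and 3.73% in Il10rb+/-.

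The promoters of these genes are shown because the members moved together. RefSeq promoter sequences (GRCm38.p6) were found for 22 of the 28, and the motif GAANNTTC, an inverted pair of GAA units that reads the same on both strands, was sought in the 250 bases before each start site. It occurred for 9 of the 22 genes (40.9%), against 7.73% of all 27025 genes with a promoter entry. Among the 8 genes with an entry that were over 3-fold higher it occurred for 5, and among the 14 others for 4. Several genes have more than 1 start site, and counted by window it occurred in 5 of 14 (35.7%) and 5 of 16 (31.2%), shares that are close to each other. Stretches of 48 bases around it, 5′ to 3′ on the gene's strand with 1 motif each in capitals, are as follows.
Hspb1, chr5:135887782-135887829, plus strand: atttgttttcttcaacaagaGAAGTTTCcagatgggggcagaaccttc
Dnaja4, chr9:54699449-54699496, plus strand: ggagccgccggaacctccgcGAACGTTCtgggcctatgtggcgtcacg
Hspd1, chr1:55088044-55088091, minus strand: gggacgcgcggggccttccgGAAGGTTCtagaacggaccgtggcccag
Dnaja1, chr4:40722324-40722371, plus strand: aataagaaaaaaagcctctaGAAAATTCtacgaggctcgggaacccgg
Hspa1b, chr17:34959315-34959362, minus strand: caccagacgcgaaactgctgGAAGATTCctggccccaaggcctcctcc
Fkbp4, chr6:128438780-128438827, minus strand: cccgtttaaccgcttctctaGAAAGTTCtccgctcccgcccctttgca
The stretch of Hspd1 is also the promoter of Hspe1 on the other strand, so that 1 motif serves both in this count. The motif in capitals for Hspb1 begins 117 bases before the start site, and its stretch ends in another match, in lower case, that begins 97 bases before it. The capitals begin 90 bases before the start site in Dnaja4 and 124 in Dnaja1. The first 4 belong to genes over 3-fold higher at 12 weeks, with log2 ratios of 3.69, 2.32, 2.07 and 1.91, and the last 2 to genes within 3-fold, with 1.35 and 0.78. Hsph1, Bag3 and Dnajb1 had no match in these windows. A match is a description of letters, and binding was not measured.

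Immediate early genes, which are induced within minutes of many stimuli, did not share this direction. Of 30, 2 were over 3-fold higher and none lower, near the 5.12% and 0.788% of all genes. The median was 0.11, or -0.13 when scaled to total reads. Fos had 232481 at 3 weeks and 184354 at 12 weeks, Jun 114553 at 3 weeks and 99753 at 12 weeks, Egr1 94279 at 3 weeks and 81544 at 12 weeks and Dusp1 117232 at 3 weeks and 126902 at 12 weeks, all within 1.5-fold. The 2 past the threshold were Fosl1, at 12.2 at 3 weeks and 211 at 12 weeks, and the phosphatase gene Dusp5, at 4607 at 3 weeks and 13853 at 12 weeks. The summed share of reads on the list was 8.11% at 3 weeks and 6.74% at 12 weeks. The AP-1 motif TGAGTCA was present in the promoter windows of 1 of 25 such genes with an entry (5.16% of all genes), and the cyclic AMP element TGACGTCA in those of 3 (1.77% of all genes).

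Of 16 genes of antigen presentation, 1 was past 3-fold, near the 5.12% of all genes over 3-fold higher. The median was 0.52, or 0.28 when scaled to total reads. The class II chains H2-Aa, at 147724 at 3 weeks and 231521 at 12 weeks, and H2-Eb1, at 125180 at 3 weeks and 196862 at 12 weeks, and the invariant chain Cd74, at 460282 at 3 weeks and 735194 at 12 weeks, had log2 ratios of 0.65, 0.65 and 0.68. H2-Eb2, at 43.8 at 3 weeks and 174 at 12 weeks, was the one past 3-fold. Ciita, the master regulator of these genes, was lower at 7101 at 3 weeks and 4839 at 12 weeks (log2 ratio -0.55, 95% counting interval -0.61 to -0.49), as was its partner Rfx5, at 436 at 3 weeks and 284 at 12 weeks. H2-Oa and H2-Ob, which encode the B cell-rich modulator DO, were higher within 3-fold. The B cell list was higher too, and its part in the H2-Oa and H2-Ob values was not tested. H2-Oa had 475 at 3 weeks and 1270.4 at 12 weeks, and H2-Ob 937 at 3 weeks and 1896 at 12 weeks. None of 14 costimulatory and checkpoint genes was past 3-fold (median 0.46). Cd40 had 881 at 3 weeks and 2359.7 at 12 weeks, Cd80 406 at 3 weeks and 996 at 12 weeks, Cd86 3774 at 3 weeks and 6288 at 12 weeks and Cd274, which encodes PD-L1, 4509 at 3 weeks and 8819.8 at 12 weeks, all higher, and Sirpa, the receptor for the signal CD47, was lower at 18709 at 3 weeks and 13143 at 12 weeks.

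Genes for the clearance of dead cells and lipids differed little. Among 31 tested complement and scavenger receptor genes, 1 was over 3-fold lower and none higher, and the median was 0.08, or -0.16 when scaled to total reads. The 1 gene was the complement component C2, at 85.2 at 3 weeks and 19.9 at 12 weeks. Stab1, a scavenger receptor, had 12002 at 3 weeks and 5303 at 12 weeks, and Mrc1, the mannose receptor CD206, 19977 at 3 weeks and 12185 at 12 weeks. The apoptotic cell receptors Axl, at 13589 at 3 weeks and 15614 at 12 weeks, and Mertk, at 1122 at 3 weeks and 1116 at 12 weeks, were level, while the fatty acid receptor Cd36 had 3349 at 3 weeks and 6752 at 12 weeks and C3 2239 at 3 weeks and 4310.4 at 12 weeks. The median of 29 lysosome and lipid genes was 0.18, or -0.06 when scaled to total reads. Over 3-fold higher was 1 of them, near the 5.12% of all genes. It was Fabp4, a fatty acid chaperone of fat cells, capillaries and MΦs, at 9.73 at 3 weeks and 824 at 12 weeks, the 3-week value resting on 4 reads. The cathepsin gene Ctsb had 78228 at 3 weeks and 85702 at 12 weeks, Ctsd 17351 at 3 weeks and 15161 at 12 weeks, and Apoe 105967 at 3 weeks and 81265 at 12 weeks. Lpl, the lipoprotein lipase gene, had 823 at 3 weeks and 1919 at 12 weeks, and Lgals3, which encodes galectin-3, 9924 at 3 weeks and 19688 at 12 weeks. Of 21 sterol synthesis genes 1 was past 3-fold, again near the share of all genes. It was the desaturase gene Scd1, at 73.0 at 3 weeks and 479.9 at 12 weeks. The list's median of 0.11 became -0.13 when scaled to total reads.

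Growth factors and matrix genes held 9 of 26 members over 3-fold higher and 1 over 3-fold lower (median 1.01). Of the 26, 3 passed the limit on low values through the 12-week library alone, Timp1, Timp3 and Adamts1. They had to be higher at 12 weeks, and all are among the 9. Areg, the EGF receptor ligand amphiregulin, had 212 at 3 weeks and 1554 at 12 weeks (log2 ratio 2.88, 95% counting interval 2.57 to 3.20), and Hbegf, another ligand of that receptor, 964 at 3 weeks and 3411 at 12 weeks. Vegfa, the vessel growth factor, had 1231 at 3 weeks and 4665 at 12 weeks, and Pdgfb, which recruits pericytes, 557 at 3 weeks and 2115 at 12 weeks (log2 ratio 1.92, 95% counting interval 1.73 to 2.12). These 4 secreted growth factors were past the threshold, whereas Igf1 was lower at 2533 at 3 weeks and 1391 at 12 weeks and Hgf level at 183 at 3 weeks and 191 at 12 weeks. The protease gene Mmp19 had 1022 at 3 weeks and 4918 at 12 weeks, and Timp1, an inhibitor of such proteases, 38.9 at 3 weeks and 174 at 12 weeks. The related inhibitor Timp3 had 34.1 at 3 weeks and 661 at 12 weeks. Adamts1 had 24.3 at 3 weeks and 361 at 12 weeks and the matrix protein gene Sparc 458 at 3 weeks and 1779 at 12 weeks. Timp3 and Sparc are abundant in stroma, whose marker list was higher too, and the list's part in the Timp3 and Sparc values was not tested. Mmp8, the neutrophil collagenase, was the member past 3-fold in the other direction, at 404 at 3 weeks and 128 at 12 weeks (log2 ratio -1.66, 95% counting interval -1.94 to -1.37), and Mmp9 was lower within 3-fold at 2504 at 3 weeks and 1090.2 at 12 weeks. In the TGF-beta pathway 3 of 21 genes were over 3-fold higher, beside 5.12% of all genes. Tgfb2 had 9.73 at 3 weeks and 56.7 at 12 weeks, and Tgfb3 24.3 at 3 weeks and 104 at 12 weeks. Lrrc32, which displays latent TGF-beta, had 73.0 at 3 weeks and 335 at 12 weeks. Tgfb2 and Tgfb3 passed the limit on low values through the 12-week library alone, so both had to be higher there. The abundant ligand gene Tgfb1 had 4390.1 at 3 weeks and 6115 at 12 weeks, the receptor genes Tgfbr1 7605 at 3 weeks and 6028 at 12 weeks and Tgfbr2 6707 at 3 weeks and 6073 at 12 weeks, and the list median was 0.07, or -0.17 when scaled to total reads.

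Metabolic genes leaned upwards. Of 25 glycolysis and hypoxia genes, 4 were over 3-fold higher, 23 had ratios above 0, and the median was 0.52. Ndrg1, a gene induced by hypoxia, had 404 at 3 weeks and 3666 at 12 weeks (log2 ratio 3.18, 95% counting interval 2.96 to 3.41), after 76.3 at 1 week. Slc16a3, the lactate exporter, had 219 at 3 weeks and 1367 at 12 weeks, Egln3, an oxygen sensor, 12.2 at 3 weeks and 58.2 at 12 weeks, and Vegfa is the fourth. The glycolytic enzyme genes differed less, with Gapdh at 4492 at 3 weeks and 6646 at 12 weeks, Pkm at 5736 at 3 weeks and 8228 at 12 weeks and Ldha at 7035 at 3 weeks and 7576 at 12 weeks. All 24 tested oxidative phosphorylation genes had ratios between 0.02 (Uqcrc1) and 0.75 (Cox5b), a median of 0.29 that became 0.05 when scaled to total reads.

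Genes of the cell cycle were lower. Of 28, none was past 3-fold, but 25 had ratios below 0 and the median was -0.60. Top2a, which untangles DNA before division, had 1338 at 1 week and 691 at 3 weeks and 376 at 12 weeks (log2 ratio -0.88, 95% counting interval -1.08 to -0.68), and Kif11, a spindle motor, 374 and 192 at 3 weeks and 83.2 at 12 weeks. Each later library was the lower for both. The 3 with ratios above 0 were Mki67, at 769 at 3 weeks and 872 at 12 weeks, and the replication genes Mcm6, at 501 at 3 weeks and 568 at 12 weeks, and Pcna, at 1265 at 3 weeks and 1329 at 12 weeks. The list took 0.120% of reads at 1 week, 0.0609% at 3 weeks and 0.0407% at 12 weeks. Interferon response genes were mixed, with 2 of 35 over 3-fold higher, a share near that of all genes, and a median of 0.25, or 0.01 when scaled to total reads. Oasl1 had 1117 at 3 weeks and 6153 at 12 weeks (log2 ratio 2.46, 95% counting interval 2.33 to 2.60) and Isg20 17.0 at 3 weeks and 144 at 12 weeks, while Ifit2, at 823 at 3 weeks and 641 at 12 weeks, Stat2, at 988 at 3 weeks and 632 at 12 weeks, and Gbp5, at 326 at 3 weeks and 196 at 12 weeks, were lower within 3-fold.

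The same interval was read in Il10rb-/- MΦs, from other libraries. Of the 10666 genes, 497 (4.66%) passed 3-fold upwards and 846 (7.93%) downwards there. Both genotypes rose over 3-fold for 228 genes, 41.8% of the Il10rb+/- rises and 45.9% of the Il10rb-/- rises. Both fell for 48, 57.1% of the Il10rb+/- falls but 5.67% of the Il10rb-/- falls. In 61 of the 546 (11.2%) and 3 of the 84 (3.57%) the other genotype passed 3-fold the opposite way, beside the 7.93% and 4.66% of all genes. Of the lists described above, resident macrophage genes had a median of -0.03 in Il10rb+/- and -1.22 in Il10rb-/-, with 0 and 13 of 28 over 3-fold lower. For complement and scavenger receptor genes the medians were 0.08 and -1.76, and for cell cycle genes -0.60 and -2.43. For glycolysis and hypoxia genes they were 0.52 and 1.96, with 4 and 18 of 25 over 3-fold higher. NF-kappaB genes had medians of 1.11 and 1.09. These differences between genotypes rest on 1 library for each point and were not tested. The part of colitis in the Il10rb-/- values was not tested either.

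**Figure D5:**
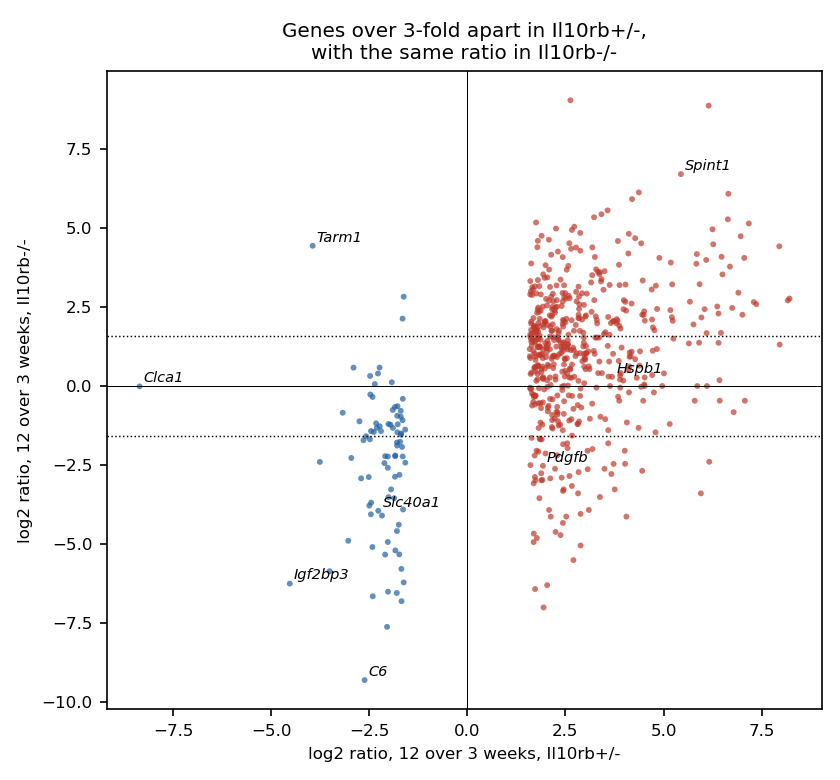
Log2 ratio (12 over 3 weeks) in Il10rb+/- (x axis) and Il10rb-/- (y axis) of the genes over 3-fold apart in Il10rb+/-, red for the 546 higher and blue for the 84 lower at 12 weeks; dotted lines mark 3-fold in Il10rb-/-. Spint1 is high in both genotypes, Igf2bp3, Slc40a1 and C6 are low in both, Hspb1 is past 3-fold in Il10rb+/- (3.69) and not in Il10rb-/- (0.29), and Tarm1 and Pdgfb lie on opposite sides.

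Genes over 3-fold the same way in both genotypes were ranked by the weaker of their interval ends. The first of the shared rises was Spint1, at chr2:119237362-119249527, which encodes an inhibitor of cell-surface serine proteases. In Il10rb+/- it had 3204 normalized counts at 1 week, 58.4 at 3 weeks and 2543 at 12 weeks, and in Il10rb-/- 3202, 33.4 and 3503. The low 3-week levels against 12 weeks follow from the ranking, and the 1-week libraries, which it did not use, were also high. Retnlg, Plvap, Sox7 and Kcnip3 followed, and of these Plvap had 21.9 at 3 weeks and 1957 at 12 weeks in Il10rb+/- and 20.2 and 345 in Il10rb-/-. Sox7, a transcription factor of endothelium, had 0 reads and 101 in Il10rb+/- and 0.879 and 59.9 in Il10rb-/-. The shared falls were led by Igf2bp3, Tln2, C6, Wnt4 and Slc40a1, with log2 ratios in Il10rb-/- of -6.26, -5.86, -9.31, -2.93 and -3.95, that of C6 with 0 reads at 12 weeks shown as 1. Of the genes that moved oppositely, Pmp22, a membrane protein gene, had 767 at 3 weeks and 4053 at 12 weeks in Il10rb+/- and 505 and 67.5 in Il10rb-/-. Tarm1, an activating receptor of myeloid cells, had 94.9 at 3 weeks and 6.15 at 12 weeks in Il10rb+/- and 45.7 and 995 in Il10rb-/-.

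The change shared by both genotypes is the only 12-week against 3-week comparison with more than 1 library at each age, and it was tested over all 6 libraries with limma, with genotype as a term. Its error is the difference of the age effect between genotypes, on 2 residual degrees of freedom. Of 11067 genes, 3 were higher at 12 weeks at an adjusted p of 0.0343 in limma (0.0271%) and 0 lower (0%), while at an unadjusted p below 0.05 there were 1246 higher and 1015 lower. The 3 were Spint1, with a shared log2 difference of 6.04, Cxcl3, with 3.36, and Ndrg1, with 3.34, on the scale of log2 of the value plus 1. Their levels kept to the same direction in both genotypes. Cxcl3 had 426 and 4517 in Il10rb+/- and 638 and 6331 in Il10rb-/-. Ndrg1 had 404 and 3666 in Il10rb+/- and 499 and 5684 in Il10rb-/-. The count depends on which libraries enter, from 1 higher gene without the 3-week Il10rb-/- library to 1560 without the 12-week Il10rb+/- library, when the adult level rests on Il10rb-/- alone, and it was 0 with scaling to total reads.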

How the data were processed

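Colonic P3/P4 MΦs were sorted from Il10rb+/- and Il10rb-/- littermates, and their polyadenylated RNA was sequenced in 6 libraries, 1 for each genotype at 1, 3 and 12 weeks. Groups follow the genotype and age in the labels. Per gene, the authors deposited a normalized signal. They aligned reads to mm10 with TopHat, counted with HTSeq and scaled by DESeq size factors, and genes without reads carry the value 1. The submitters' processing notes also name Trim Galore. Versions, annotation and strand setting are not given in the sources used here, so reads shared by overlapping or near-identical genes are uncertain. The methods name oligo dT beads where the labels name a SMART-Seq kit.

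Apart from the value 1, 100% of the values in a library came out as whole multiples of its smallest step (within 0.05 of a step), so reads were read back for depth and counting intervals. Because zeros were replaced, no count model was run. Ratios were taken on the deposited values, among genes with 50 or more in either library, with a 3-fold threshold and no test. The 95% intervals (exact Clopper-Pearson) treat reads of the 2 libraries as a binomial split, and like the floor of 3 reads they cover counting error only. limma 3.58.1 (R 4.3.3) was fitted to log2 of the value plus 1 over 6 libraries with age and genotype as terms and an intensity trend, p-values being adjusted by Benjamini-Hochberg at 0.05. They measure the spread between these 6 libraries only. Other steps used Python 3.11.15 with pandas 2.3.3, numpy 2.4.6 and scipy 1.17.1, and matplotlib 3.10.9 drew the figures. On simulated data with counting noise alone, the 3-fold threshold recovered 99.5% of 200 genes changed 6-fold among 10666, with 0 false. For limma the simulation added a set spread between libraries and gave both genotypes the same change. There it recovered 196 of 200 genes changed 4-fold among 11067, with 4 false. In these data the age effects differ between genotypes, as in the list medians above, so these counts do not give the power of the limma test here.

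Coordinates are from GENCODE on GRCm38, which held 14085 of the 14097 genes. List genes missing by symbol were matched through their Ensembl ID, and 653 of 688 entries were found. Named genes are the 12 largest rises and falls by the end of the interval nearest 0, 10 cytokine genes, members of the lists, and the first 5 each way that moved alike or oppositely in both genotypes. Other genes were chosen after their values were seen. The members and lists were chosen with earlier results of these data known. Alternatives were other scalings, pseudocounts, filters, thinning of reads, and leaving out libraries or lists. Some items are not reported here.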

Additional observations from a re-analysis of the deposited data

Results flagged for a closer look

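Between 3 and 12 weeks, 61 genes passed 3-fold upwards in Il10rb+/- and downwards in Il10rb-/-, and 3 the other way. The 61 were 11.2% of the 546 Il10rb+/- rises, beside 7.93% of all 10666 genes that fell over 3-fold in Il10rb-/-. The 3 were 3.57% of the 84 falls, beside 4.66% of all genes that rose there. Given here are the first 5 of the 61, ranked by the weaker interval end, and all 3 of the others. The difference between genotypes was not tested, as each value rests on 1 library. Pmp22 had a log2 ratio of 2.40 in Il10rb+/- and -2.90 in Il10rb-/-. Dpysl3, a cytoskeletal gene, had 2.60 and -2.85. Foxf1, a transcription factor of gut mesenchyme, had 4.05, from 2 reads at 3 weeks, and -4.14, with 0 reads at 12 weeks in Il10rb-/- shown as 1. Dmpk, a kinase gene of muscle, had 3.76 and -3.27, again with 0 reads at 12 weeks in Il10rb-/-. Pcsk6, a proprotein convertase gene, had 5.95 with 0 reads at 3 weeks shown as 1, at least 8.48-fold higher at 12 weeks, and -3.40 in Il10rb-/-. The stromal, muscle and endothelial list went from 0.0327% of reads at 3 weeks to 0.0523% at 12 weeks in Il10rb+/- and from 0.0326% to 0.00702% in Il10rb-/-, the same directions as these 5 genes, and its part in them was not tested. Lyve1, which is on the resident macrophage list too, counts in these shares.

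Only 3 genes fell in Il10rb+/- and rose in Il10rb-/-. Tarm1 had -3.95 and 4.44, Mmp8 -1.66 and 2.13, and Il18rap, a chain of the IL18 receptor, -1.63 and 2.83. The neutrophil list, of which Mmp8 is itself a member, went from 0.0558% of reads to 0.0743% in Il10rb+/- and from 0.0811% to 0.204% in Il10rb-/-, most of it on Il1r2 and Csf3r, while S100a8 stood at 12.8 and 1673 normalized counts at 12 weeks in the 2 genotypes, and its part in these 3 genes was not tested.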

How the results depend on the processing

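The counts of 546 higher and 84 lower genes stayed within 1.5 times under TMM scaling, median of ratios, a pseudocount of 1, thinning of the 12-week reads to the 3-week depth, a limit of 50 in any library, and without genes of chromosomes X and Y, the heat shock and immediate early lists or the lists of other cell types. Without a limit on low values they were 1492 and 472, and with the whole interval required past 3-fold 321 and 33. The lower count was 150 with scaling to total reads, 50 with a pseudocount of 10 and 41 with a limit of 100. The 6700337 reads at 3 weeks set the width of the counting intervals. Of the values tried for single genes, 665 stayed within the gene's counting interval and 49 moved out of it, and of those for list medians 246 and 33, none of the genes past 3-fold changing direction. Under scaling to total reads the medians of the eosinophil (0.48 to -0.35) and neutrophil lists (0.01 to -0.23) changed sign too. Thinning (-0.05) and a limit of 100 (-0.11) also turned the eosinophil median, and TMM (-0.01) and median of ratios (-0.01) the neutrophil median.

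For the change shared by both genotypes (3 higher, 0 lower), a pseudocount of 10 gave 7 and 1, scaling to total reads 0 higher, and leaving out the 1-week libraries 99 and 3. With 1 library left out at a time, higher genes numbered from 1 to 1560 and lower genes from 0 to 1564. The highest counts came without the 12-week Il10rb+/- library (1560 and 1564) and without the 12-week Il10rb-/- library (483 and 174), when the lone 12-week library is assumed to vary like the others. Without the 1-week Il10rb-/- library they were 100 and 7, without the 1-week Il10rb+/- library 68 and 3, without the 3-week Il10rb+/- library 4 and 0 and without the 3-week Il10rb-/- library 1 and 0. The cause was not tested. The planned count models (edgeR and DESeq2) were not run. No paired analysis was possible because each group holds 1 library and the groups share only the replicate number 1.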

Other observations

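A small set of genes, chosen after their values were seen, was low at 3 weeks against both other ages in both genotypes by more than 3-fold. With 0 reads set to the floor of 3 reads there were 6 such genes among those tested, Vasn, Kcnip3, Spint1, Mgll, Spib and Mreg, and 1, Wnt4, was high at 3 weeks in the same way. Spib, an ETS factor of B cells and plasmacytoid dendritic cells, had 158, 41.4 and 341 normalized counts at 1, 3 and 12 weeks in Il10rb+/- and 114, 12.3 and 93.6 in Il10rb-/-. Mgll, the monoacylglycerol lipase, had 53.5, 7.30 and 266 in Il10rb+/- and 41.9, 3.52 and 52.9 in Il10rb-/-. Kcnip3, a calcium-binding protein gene, had 0 reads at 3 weeks in both genotypes, against 138 and 99.8 at 1 and 12 weeks in Il10rb+/- and 109 and 38.8 in Il10rb-/-. Vasn, a TGF-beta-binding protein gene, had 53.5, 17.0 and 160.3 in Il10rb+/-, and Mreg 42.6, 9.73 and 104. The choice itself sets the 3-week library apart from the others within each genotype, so that separation is no further result. Whether the 3-week libraries were prepared apart from the others is not given in the sources used here.

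Some single genes outside the lists were likewise chosen after their values were seen. Srxn1, which repairs oxidized peroxiredoxins, had 409 at 3 weeks and 2908 at 12 weeks (log2 ratio 2.83, 95% counting interval 2.61 to 3.06), and Txnrd1, thioredoxin reductase, 1523 at 3 weeks and 6965 at 12 weeks. In Il10rb-/- their log2 ratios were 2.15 and 2.68. The adenosine receptor gene Adora2b had 173 at 3 weeks and 1179 at 12 weeks in Il10rb+/- and 472 and 3739 in Il10rb-/-. Among genes in the opposite direction, the histone deacetylase gene Hdac9 had 652 at 3 weeks and 159 at 12 weeks (log2 ratio -2.03, 95% counting interval -2.27 to -1.80) and the apolipoprotein gene Apoc1 275 at 3 weeks and 50.1 at 12 weeks.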
